A study of Homo sapiens with 3 samples.

Results

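The comparison described here sets the transcriptome of SK-Hep-1 cells carrying the hairpin sh1089-1 against that of the control line shNC. These cells, an established human line, came from a liver adenocarcinoma and are known for endothelial traits. Each group was a line with a stably delivered short hairpin RNA: shNC is the negative control, sh1089-1 is 1 hairpin against the long noncoding RNA LINC01089, and sh1089-2 is a different hairpin against the same RNA. The labels name no further treatment, and whether a line is a clone or a pool is not given in the sources used here. Each line gave 1 library, so 2 of the 3 libraries enter the differences. The library of sh1089-2 has a part in the choice of genes by level and reads, and is otherwise given only beside them.

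The genes were chosen by type and level. Of 22464 genes listed with a value in FPKM (fragments scaled to gene length and to the size of the library), 16858 were protein-coding, and 10313 of these had a mean of at least 1 FPKM over the 3 libraries. These 10313 are called the measured genes, and the other 6545 protein-coding genes lay below that level. For each measured gene the difference was taken as log2(FPKM + 1) in sh1089-1 minus the same in shNC, and a gene was called higher or lower by size alone, at 2-fold or 1.5-fold on that scale, which understates the change of low genes. With 1 library a group there was no replicate spread, so every value below is a difference between these libraries and carries no p-value. The fold of a single gene is its plain FPKM ratio, with nothing added, and the range in brackets after a fold is its 95% counting interval, from whole reads recovered out of the FPKM steps. It covers counting error only, not the variation between cultures. A value at which a gene is said to stand, or a lone value in brackets after its name, is the log2(FPKM + 1) difference, and medians of lists are on the same scale. A run of 3 FPKM or read values is in the order shNC, sh1089-1, sh1089-2.

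A short hairpin RNA is cut in the cell to a small interfering RNA that guides the degradation of a matching transcript. Long noncoding RNAs are transcripts with no protein product, of which some act in the nucleus on nearby genes and others bind proteins or small RNAs. Much of what follows concerns genes of the cell cycle. The E2F factors switch on genes of DNA synthesis once the retinoblastoma protein RB1 is phosphorylated, and later in the cycle MYBL2 and FOXM1, bound to the MuvB core complex, switch on genes of mitosis. The same core, bound to E2F4 and the RB-like proteins, represses both sets in resting cells.

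The level of LINC01089 was not analysed here, and neither the knockdown nor the labels could be checked against the target. The libraries held 10698480 reads in shNC, 9528312 in sh1089-1 and 8359832 in sh1089-2, and mitochondrial genes took 4.69% to 5.24% of them. The labels give the tissue as liver. Of 11 hepatocyte markers, which summed to 5.19 FPKM in shNC and 6.5 in sh1089-1, only SERPINA1 was measured, at 4.69, 5.91 and 8.0 FPKM in shNC, sh1089-1 and sh1089-2, while APOA1, APOA2, TTR and FGB were listed at 0 in shNC. Of 13 endothelial markers, which summed to 287 FPKM in shNC and 316 in sh1089-1, nearly all of it from CAV1 and ENG, ENG (37.5, 48.8 and 42.8 FPKM, in the same order of libraries), ROBO4 and CAV1 were measured, whereas PECAM1, CDH5 and VWF lay below 0.1 FPKM in shNC and FLT1 and ERG were listed at 0 there. The listed ones of 8 blood cell markers together came to 2.63 FPKM in shNC and 2.64 in sh1089-1. Some genes that every cell uses, such as ALDOA (0.812, 0.697 and 0.58 FPKM) and ATP6V0C (0, 0.148 and 0 FPKM), were listed near or at 0 in every library, so a low value in this table does not show that a gene is silent.

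Most genes lay close to the control. The median difference over the measured genes was -0.03, the middle 80% ran from -0.43 to 0.40, and 9374 genes (90.9%) were within 1.5-fold of shNC. At 2-fold, 86 genes were higher (0.834% of those measured) and 71 were lower (0.688%). At 1.5-fold, 469 were higher (4.55%) and 470 lower (4.56%). Counting differences of any size, 46.5% of the measured genes were above shNC and 53.5% below. Of the 2-fold genes, 82 of the higher and 68 of the lower rested on at least 100 reads over the 3 libraries. The higher genes tended to be more strongly expressed, with a median of 12.4 FPKM (mean of the 3 libraries) against 5.94 in the lower genes and 6.76 in all measured genes. The threshold fell among many similar values: just inside it stood CD74 at 1.00 and SCG2 at -1.004, and just outside PITX1 at 0.998 and FGD6 at -0.994. The counts depend on the value added before the log: with 0.1 in place of 1, 169 genes were 2-fold higher and 172 lower.

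**Figure D1:**
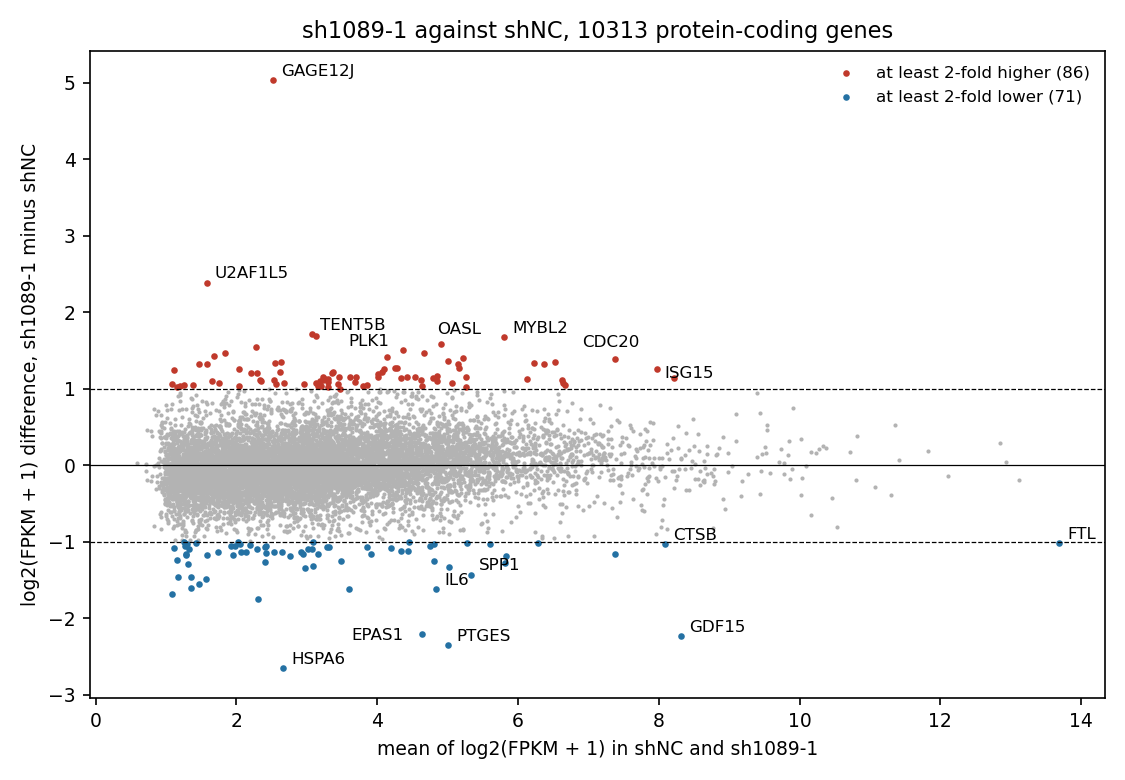
Each point is 1 of the 10313 measured protein-coding genes, placed by its mean log2(FPKM + 1) over shNC and sh1089-1 and by the difference between them, 1 library each, with dashed lines at 2-fold. The 86 higher genes (red) and 71 lower genes (blue) lie around a dense band centred near 0, in which 90.9% of genes are within 1.5-fold.

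The difference was related to level and to length across the genes, which are not independent replicates. With the genes cut into 4 equal groups by mean FPKM, from the lowest to the highest, the median difference was -0.10, -0.07, -0.001 and 0.08. With 4 groups by exon length, from the shortest to the longest, it was 0.04, 0.01, -0.04 and -0.09. By these medians, highly expressed and short genes sat slightly above the control and weakly expressed and long genes slightly below it. The amounts were far under the 1.5-fold line (0.585 on the log2 scale). The share past that line varied more. It was 2.52% higher and 5.58% lower in the lowest FPKM group, against 7.14% and 3.76% in the highest. In the shortest genes 7.91% were higher and 6.82% lower, against 1.71% and 3.69% in the longest. The shares of all measured genes given beside the lists below are not matched for level or length. Whether this trend has a part in the list medians and shares below was not tested.

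Of the gene lists, those on cell division held the most genes higher in sh1089-1. The 8 lists on the cell cycle, mitosis, DNA replication and recombination hold 188 measured genes. Of these, 169 were above shNC and 19 below, beside 46.5% and 53.5% of all measured genes. In these lists 99 genes (52.7%) were at least 1.5-fold higher, beside 4.55% of all measured genes, and 2, the inhibitors CDKN1A and CDKN1C, were 1.5-fold lower. They supplied 38 of the 86 genes that were 2-fold higher (44.2%) and 0 of the 71 that were 2-fold lower, while they are 1.82% of the measured genes. The median difference was 0.62 in sh1089-1, and 0.56 in sh1089-2 against the same control library. In bulk RNA a larger share of dividing cells and more of these transcripts in each dividing cell cannot be told apart.

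The activators of the mitotic programme were both high. MYBL2 (chromosome 20, 43667019 to 43716496, plus strand, GRCh38) had 30.2 FPKM in the control, 98.9 with sh1089-1 and 76.4 with sh1089-2, and was 3.28-fold higher (3.04 to 3.54). FOXM1, the forkhead factor that follows it on the same promoters, had 18.2 FPKM in shNC against 42.2 in sh1089-1 and 40.8 in sh1089-2 and was 2.31-fold higher (2.14 to 2.5). In both genes the control was the lowest of the 3 libraries and sh1089-1 the highest. MYBL1, the relative of MYBL2 best known from the testis, had 10.6, 11.1 and 11.2 FPKM in the same order of libraries and did not stand apart. No other member of this list passed 1.5-fold: the MuvB core genes LIN9, LIN52, LIN54 and RBBP4 ranged from -0.33 to 0.25, and of the repressive partners E2F4 stood at 0.48 and RBL2 at -0.53. The list's median over 13 measured genes was 0.08, and 0.27 over those with a mean of at least 5 FPKM.

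The kinases and regulators of entry into and exit from mitosis were higher almost throughout. Of 27 genes 22 were past 1.5-fold higher (81.5%, beside 4.55% of all) and none lower, with a median of 0.72. PLK1 (chromosome 16, 23677656 to 23690367, plus strand), the kinase that drives centrosome maturation and mitotic entry, had 11.3 FPKM in the control, 33.8 with sh1089-1 and 34 with sh1089-2, and was 3.0-fold higher (2.72 to 3.31). AURKB, the kinase of the chromosomal passenger complex, had 22.1 FPKM in shNC against 54.8 in sh1089-1 and 60.6 in sh1089-2 and was 2.49-fold higher (2.24 to 2.76). Its relative AURKA, which acts at the spindle poles, had 23.5, 44.3 and 54.7 FPKM in the same order, a smaller difference from the control. Cyclin B1 (CCNB1), the partner of CDK1 in mitosis, was 2.22-fold higher (2.07 to 2.38), whereas CDK1 itself was 1.51-fold higher (1.34 to 1.7) and missed the 1.5-fold line at 0.56. CDC25A, a phosphatase that removes the inhibitory mark from cyclin-dependent kinases, was 3.11-fold higher (2.51 to 3.87), while its relative CDC25B stood at -0.01. WEE1, the kinase that places that mark, stood at -0.09, and PKMYT1, its membrane-bound counterpart, was 1.97-fold higher (1.83 to 2.12). All 7 activators and substrates of the anaphase-promoting complex passed 1.5-fold, led by CDC20 with 102 FPKM in the control, 268 with sh1089-1 and 243 with sh1089-2, which was 2.63-fold higher (2.5 to 2.76).

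Motor and spindle proteins showed the same direction in all 25 measured genes, with a median of 0.67. Of these, 14 were past 1.5-fold (56.0%, beside 4.55% of all). KIFC1, a minus-end directed kinesin that bundles spindle poles, had 21.9 FPKM in shNC against 59.3 in sh1089-1 and 57 in sh1089-2. KIF18B, which shortens astral microtubules, had 9.8, 27.8 and 25.4 FPKM in the same order and was 2.84-fold higher (2.55 to 3.16). In both, the hairpin libraries lay close to each other and well above the control. TACC3, a spindle stabiliser, was 2.43-fold higher (2.24 to 2.64) and TPX2, the activator of AURKA on the spindle, was 1.97-fold higher (1.85 to 2.09). Among the tubulins TUBB4B was 2.2-fold higher (2.13 to 2.29), whereas TUBB, the most strongly expressed of them at 829, 1032 and 999 FPKM, was 1.24-fold higher (1.22 to 1.26). Tubulin genes have close copies, so their single values are uncertain where reads could be shared.

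At the kinetochore, the protein platform that ties chromosomes to microtubules, 15 of 28 genes were past 1.5-fold higher (53.6%, beside 4.55% of all). None was 1.5-fold lower, and the median was 0.67. The outer layer was represented by NDC80 (1.03), SPC24 (1.04) and SPC25 (1.10), all subunits of 1 complex, and the inner layer by CENPM (1.16) and CENPA, the centromeric histone (0.88). BIRC5, or survivin, the passenger subunit that also inhibits caspases, had 19.1 FPKM in the control, 50.5 with sh1089-1 and 46.2 with sh1089-2 and was 2.65-fold higher (2.43 to 2.88). PMF1, of the MIS12 complex, was the only measured gene of the list below the control, at -0.19.

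DNA replication genes were high along the whole order of events. Of 43 genes 27 were past 1.5-fold higher (62.8%, beside 4.55% of all) and none lower, with a median of 0.71. Of the licensing factors, all 6 subunits of the MCM helicase were higher, from 0.75 for MCM6 to 1.33 for MCM7. MCM7 had 46.2 FPKM in shNC against 118 in sh1089-1 and 103 in sh1089-2, so sh1089-1 was the highest library and the control the lowest. CDC6 (2.41-fold higher) and CDT1 (1.88-fold higher), which load the helicase, were also high, and ORC1 (2.42-fold higher) was high while ORC2, ORC3 and ORC5, its partners in the origin recognition complex, stood at -0.21, 0.15 and 0.15. Of the genes that start the helicase, RECQL4 was 2.55-fold higher (2.29 to 2.83) and GINS2 2.56-fold higher (2.01 to 3.26). FEN1, the nuclease that trims Okazaki fragments, had 14.2 FPKM in the control, 41.1 with sh1089-1 and 31.6 with sh1089-2 and was 2.9-fold higher (2.56 to 3.3), the largest difference in the list. The sliding clamp PCNA was 1.54-fold higher (1.42 to 1.67), and RPA2 and RPA3, of the single-strand binding complex, stood at 0.04 and 0.18.

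Enzymes that supply deoxynucleotides gave 6 of 13 past 1.5-fold higher (46.2%, beside 4.55% of all) and none lower. Thymidine kinase 1 (TK1) had 56.8 FPKM in the control, 147 with sh1089-1 and 141 with sh1089-2, and RRM2, the regulated subunit of ribonucleotide reductase, had 21.4 FPKM in shNC against 54.8 in sh1089-1 and 57.2 in sh1089-2. Both stood more than 2-fold above the control in sh1089-1 and in sh1089-2. DTYMK, the thymidylate kinase, was 2.27-fold higher (2.06 to 2.5). The mitochondrial kinase TK2 stood at 0.02 and RRM2B, an alternative reductase subunit, at -0.32, neither past the line.

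The regulators of the step into DNA synthesis were mixed by role. The activators E2F1 (7.85, 17.9 and 14.6 FPKM in shNC, sh1089-1 and sh1089-2) and E2F2 (1.64, 5.34 and 3.79 FPKM) were 2.28-fold higher (1.94 to 2.68) and 3.25-fold higher (2.57 to 4.14), and E2F3 stood at 0.09. RB1 was level at 5.22, 5.11 and 5.25 FPKM. All 8 cyclins and kinases of this step were above the control. Of these, 3 were past 1.5-fold (37.5%, beside 4.55% of all), with CCND3 at 0.67 and CCNE2 at 0.64. The inhibitors of cyclin-dependent kinases went both ways. CDKN1A, which encodes p21, had 339 FPKM in the control, 206 with sh1089-1 and 263 with sh1089-2 and was 1.65-fold lower (1.6 to 1.7), CDKN1C stood at -0.79, and CDKN2C was 2.26-fold higher (1.87 to 2.73). CDKN2A was listed at 0 in each library. Recombination and Fanconi genes were a milder case, with 5 of 19 past 1.5-fold higher (26.3%, beside 4.55% of all). They were led by the recombination motor RAD54L (0.84) and the exonuclease EXO1 (0.81), while BRCA1 stood at 0.14 and FANCD2 at 0.09.

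**Figure D2:**
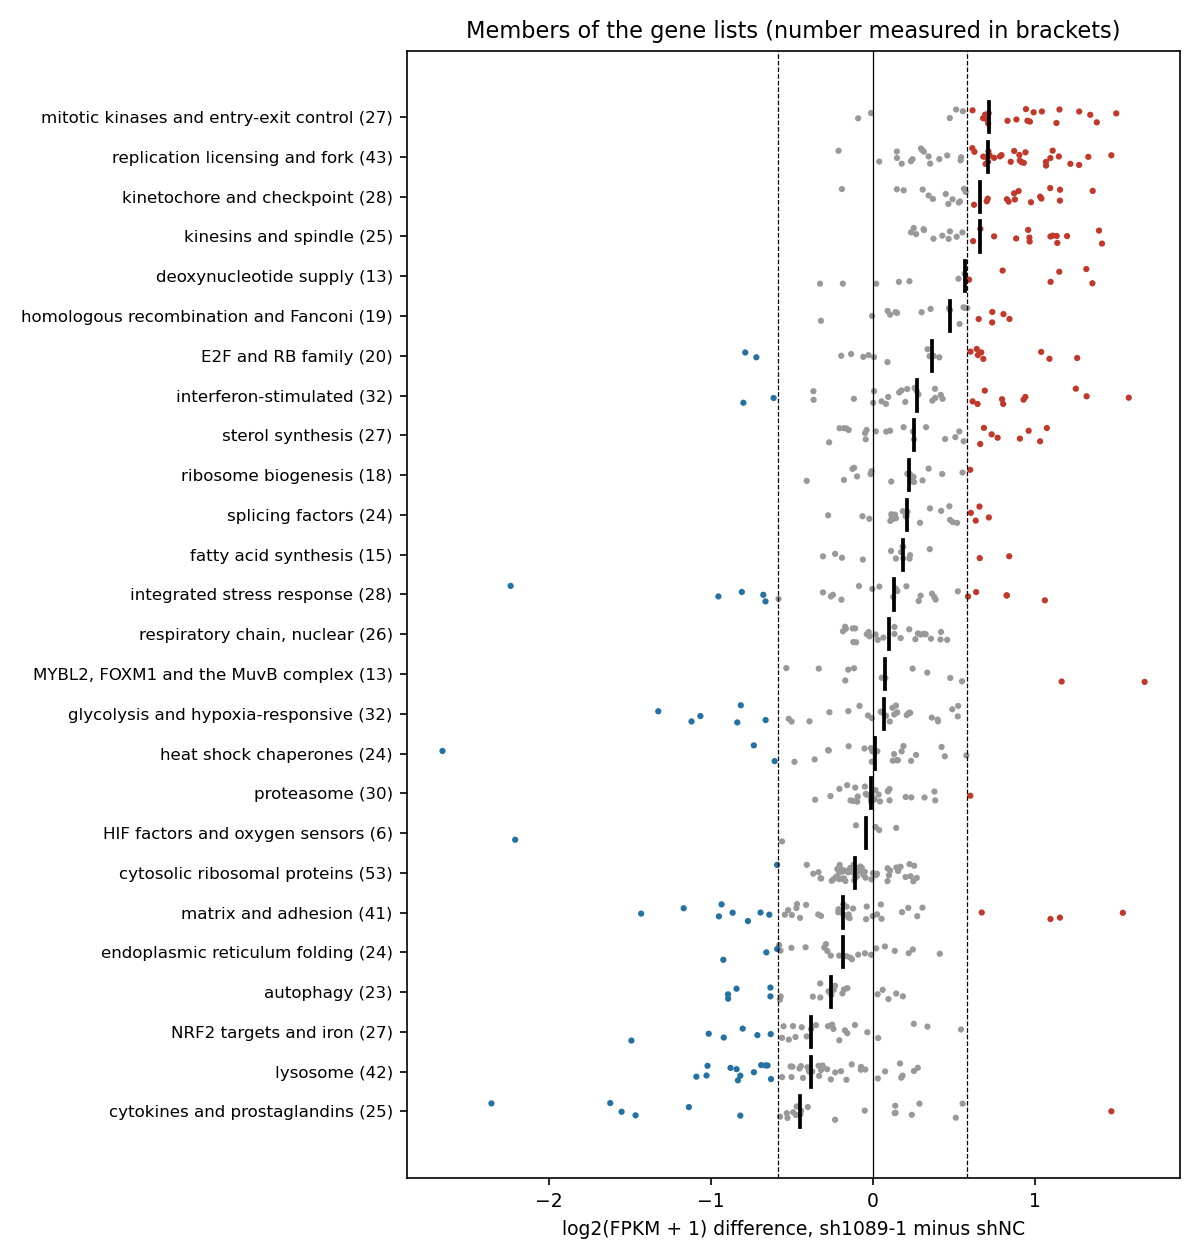
Each point is a measured gene of a list, placed by its log2(FPKM + 1) difference of sh1089-1 minus shNC, with a black bar at the list's median, dashed lines at 1.5-fold, red for higher and blue for lower. The mitosis and replication lists lie almost wholly to the right of 0, and the lysosome, NRF2 and cytokine lists mostly to the left.

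Promoters were read to see which sequence letters the higher and lower genes hold. RefSeq promoters (GRCh38.p14, 250 bases before to 50 after the start) were found for 8426 of the 10313 measured genes, 66 of the 86 genes 2-fold higher and 54 of the 71 genes 2-fold lower. Searched on both strands, the cell cycle homology region TTTGAA (CHR), through which the MuvB complex binds mitotic promoters, was in 8.85% of all these promoters, 27.3% of the 2-fold higher, 16.7% of the 2-fold lower and 26.0% of the 154 in the cell division lists. The CCAAT box, the letters bound by NF-Y, was in 36.8%, 62.1%, 38.9% and 56.5% in the same order. The E2F letters TTTNNCGC were in 11%, 18.2%, 1.85% and 29.2%. Below are stretches from PLK1 and CDC20 for the mitotic genes and from MCM7 for the replication genes, each running from 130 bases before to 20 after the start in RefSeq, which for PLK1 lies inside the GENCODE bounds given above, 5′ to 3′ on the gene's strand. Capitals mark the CHR and CCAAT boxes in the PLK1 and CDC20 stretches and the E2F letters in the MCM7 stretch. They were picked as examples after the matches were seen.
PLK1, chr16:23678759-23678908, plus strand: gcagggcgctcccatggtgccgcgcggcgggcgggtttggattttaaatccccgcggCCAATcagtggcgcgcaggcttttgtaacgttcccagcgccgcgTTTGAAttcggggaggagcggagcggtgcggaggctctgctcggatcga
CDC20, chr1:43358851-43359000, plus strand: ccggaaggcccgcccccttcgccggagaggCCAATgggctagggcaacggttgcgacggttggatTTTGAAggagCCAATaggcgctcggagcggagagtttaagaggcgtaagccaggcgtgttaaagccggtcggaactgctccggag
MCM7, chr7:100101378-100101527, minus strand: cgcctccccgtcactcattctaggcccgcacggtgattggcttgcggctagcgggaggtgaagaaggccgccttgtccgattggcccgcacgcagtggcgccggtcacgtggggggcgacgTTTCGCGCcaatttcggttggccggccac
The PLK1 stretch has the CCAAT box 73 bases and the CHR 29 bases before the start. In CDC20 a CHR at 65 bases stands between CCAAT boxes at 100 and 55 bases, and in MCM7 the E2F letters are 9 bases before the start. Many of the 2-fold higher genes are themselves in the cell division lists, so those shares are not separate. The lists hold genes known to be driven by E2F and MuvB, so their shares describe the lists and not the difference between libraries. A match is a description of the letters and shows no binding. 3 of the 8 motifs searched are given here and the others below.

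Among the other lists, interferon-stimulated genes held the most past 1.5-fold on the higher side, 10 of 32 (31.2%, beside 4.55% of all), with 2 lower (6.2%, beside 4.56%) and a median of 0.28 (0.59 in sh1089-2). These genes encode antiviral proteins and are switched on by interferon signals. OASL, a relative of the oligoadenylate synthetases, had 16.4 FPKM in the control, 51.1 with sh1089-1 and 61.6 with sh1089-2 and was 3.11-fold higher (2.84 to 3.42). ISG15, a ubiquitin-like modifier, had 161 FPKM in shNC against 386 in sh1089-1 and 384 in sh1089-2 and was 2.39-fold higher (2.26 to 2.54). The related genes IFIT1, IFIT2 and IFIT3 were 1.96-fold higher, 1.78-fold higher and 1.77-fold higher. RSAD2 (viperin) had 0.752, 3.38 and 4.84 FPKM in the order shNC, sh1089-1, sh1089-2. In these genes the control was the lowest library. The sensor RIGI was 1.64-fold higher (1.44 to 1.87). The transcription factors STAT2 and IRF7 of the same list were 1.62-fold lower (1.42 to 1.86) and 1.93-fold lower (1.51 to 2.47). IFITM3 (0.06) and BST2 (0.16), also of the list, stood near the control. MX1 lay below 1 FPKM in shNC.

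The interferon-stimulated response element was searched as its core GAAANNGAA. It was in 17 of the 24 promoters of the list (70.8%), 6.15% of all promoters, 9.09% of the 2-fold higher and 14.8% of the 2-fold lower. The ISG15 stretch shows overlapping matches that begin 113, 107 and 101 bases before the start, in capitals. As the list holds genes known for this element, the share describes the list and not the difference between libraries.
ISG15, chr1:1013367-1013516, plus strand: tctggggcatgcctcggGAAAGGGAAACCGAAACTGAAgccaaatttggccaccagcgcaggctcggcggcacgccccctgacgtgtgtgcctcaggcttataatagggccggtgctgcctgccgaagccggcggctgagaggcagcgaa

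Lipid synthesis genes were higher in part. Of 27 sterol genes 8 were past 1.5-fold higher (29.6%, beside 4.55% of all) and none lower, with a median of 0.26 (0.55 in sh1089-2). Among those with a mean of at least 5 FPKM the median was 0.51. SREBF1, the factor that drives lipid synthesis genes, had 16.4 FPKM in the control, 34.7 with sh1089-1 and 44.6 with sh1089-2, and INSIG1, a sensor that holds it in the endoplasmic reticulum, had 16.1 FPKM in shNC against 32.4 in sh1089-1 and 64.4 in sh1089-2. The enzymes EBP (2.33-fold higher) and FDPS (1.73-fold higher) were also high, but HMGCS1, an early step of the pathway, stood at -0.15. Of 15 fatty acid genes 2, FASN and FADS2, were past 1.5-fold higher (13.3%, beside 4.55% of all) and none lower. FASN, the fatty acid synthase, had 70.2 FPKM in shNC against 127 in sh1089-1 and 248 in sh1089-2, and the desaturase SCD had 48.3, 61.9 and 164 FPKM in the same order. In both the value in sh1089-1 lay nearer to the control than to sh1089-2. The sterol element, searched as TCACNCCAC, was in only 1 of the 21 promoters of the sterol list (4.76%) and in 0.973% of all promoters.

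**Figure D3:**
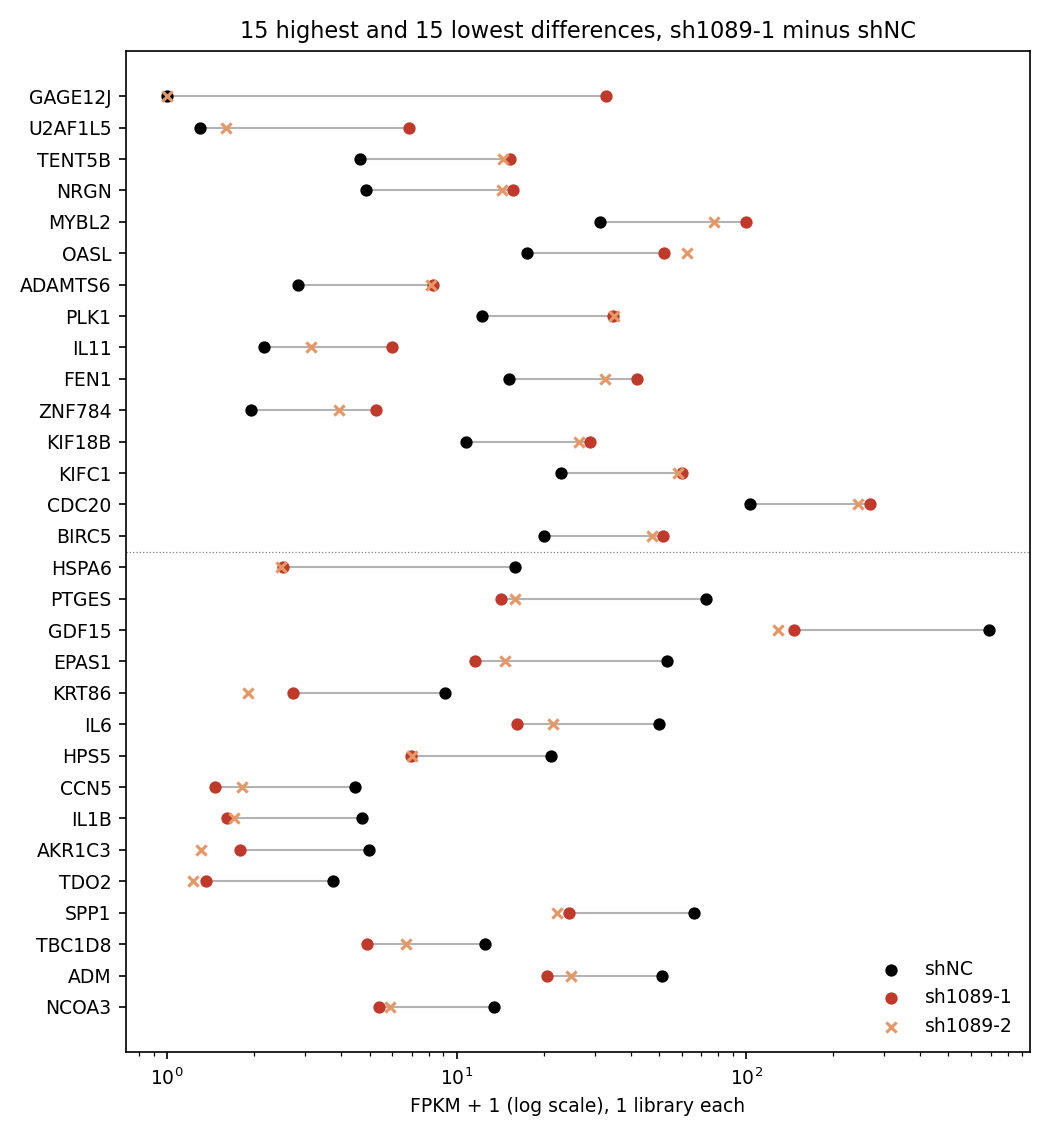
FPKM + 1 on a log axis in shNC (black), sh1089-1 (red) and sh1089-2 (crosses), 1 library each, for the 15 genes with the highest and the 15 with the lowest difference among those with at least 100 reads over the 3 libraries. The order runs from GAGE12J at 5.04 to BIRC5 at 1.36 above the dotted line, and below it from HSPA6 at -2.66 to NCOA3 at -1.32.

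Some of the highest genes stand apart from these groups. TENT5B, which encodes a noncanonical poly(A) polymerase, had 3.65 FPKM in the control, 14.3 with sh1089-1 and 13.5 with sh1089-2. NRGN, neurogranin, a calmodulin-binding protein known from neurons, had 3.85 FPKM in shNC against 14.7 in sh1089-1 and 13.3 in sh1089-2. ADAMTS6, a secreted protease of the matrix, had 1.83, 7.27 and 7.16 FPKM in the same order, and the zinc finger gene ZNF784 had 0.954, 4.28 and 2.91 FPKM. For these genes both hairpin libraries were above the control. IL11, a cytokine of the IL6 family, was 4.32-fold higher (2.93 to 6.55) with 1.15 FPKM in the control, 4.98 with sh1089-1 and 2.14 with sh1089-2, so the value in sh1089-2 was much nearer to the control.

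The 2 highest values of all belong to genes with near-identical copies and are uncertain. GAGE12J, a cancer-testis antigen gene of the X chromosome, had 0, 164 and 0 reads in shNC, sh1089-1 and sh1089-2, at least 61.4-fold higher in sh1089-1 against a floor of 3 reads in the control library. This bound takes no account of counting error in the 164 reads, and the counting interval of the ratio starts at 49.4-fold. Its copy GAGE12G had 3, 5 and 161 reads, so the libraries placed their reads on different copies. Summed over the 6 listed GAGE genes, there were 48, 177 and 172 reads, or 4.49, 18.6 and 20.6 RPM (reads scaled to library size). U2AF1L5, a second copy of the splicing factor gene U2AF1, had 36, 617 and 56 reads, and U2AF1 had 6, 5 and 87. Summed over both, they had 3.93, 65.3 and 17.1 RPM, so sh1089-1 was also the highest library in the sum. Of the lower genes, EIF3C had 415, 145 and 393 reads beside its copy EIF3CL with 16, 15 and 137, and SIK1B had 357, 119 and 143 beside SIK1 with 28, 8 and 58.

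The genes furthest below the control encode stress and inflammatory products and a hypoxia factor. GDF15, a secreted cytokine of cell stress that acts on a receptor in the brainstem, had 687 FPKM in the control, 145 with sh1089-1 and 128 with sh1089-2, and was 4.73-fold lower (4.55 to 4.93). EPAS1 (chromosome 2, GRCh38), which encodes the second HIF alpha subunit and is prominent in endothelial cells, had 52.3 FPKM in shNC against 10.6 in sh1089-1 and 13.7 in sh1089-2 and was 4.96-fold lower (4.58 to 5.37). PTGES, the synthase of prostaglandin E on the inflammatory route, had 71.9, 13.3 and 14.9 FPKM in the same order and was 5.42-fold lower (4.72 to 6.24). In all of them sh1089-1 and sh1089-2 lay close together and far below the control. HSPA6, a strictly inducible member of the HSP70 family, had the lowest difference, -2.66, with 14.8 FPKM in the control, 1.52 with sh1089-1 and 1.47 with sh1089-2. HSPA6 is similar in sequence to other HSP70 genes, so its reads could be shared with them. KRT86, a hair keratin with close copies, had 8.12 FPKM in shNC against 1.71 in sh1089-1 and 0.899 in sh1089-2. The remaining genes among the 15 lowest included TDO2, which opens tryptophan breakdown (2.73, 0.359 and 0.227 FPKM), CCN5, a matricellular protein (3.45, 0.464 and 0.817 FPKM), and TBC1D8 (11.5, 3.92 and 5.69 FPKM), in each of which the control was the highest library.

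The rest of the oxygen-sensing pathway differed less from the control than EPAS1. Its relative HIF1A had 32.5 FPKM in the control, 30.2 with sh1089-1 and 30.6 with sh1089-2, and the common partner ARNT was 1.57-fold lower (1.36 to 1.82). The oxygen sensors EGLN1, VHL and HIF1AN stood at 0.02, 0.04 and 0.15. Of 32 measured genes of glycolysis and the hypoxia response, 6 were past 1.5-fold lower (18.8%, beside 4.56% of all measured genes) and none higher, with a median of 0.07. The parts of this list leaned to different sides. The 17 glycolysis genes had a median of 0.14, with 2 past 1.5-fold lower (11.8%), and the 15 hypoxia-responsive genes had a median of -0.27 (-0.41 in sh1089-2), with 4 past it (26.7%). The lower genes were ADM, a vasodilator peptide (50.3, 19.5 and 23.8 FPKM), the glucose transporter SLC2A3 (2.26-fold lower), NDRG1 (2.21-fold lower), MXI1 (2.1-fold lower), LDHA (1.76-fold lower) and the mitophagy receptor BNIP3L (1.61-fold lower). Other classical members of the response stood near the control, VEGFA at 0.05, SLC2A1 at -0.15, PGK1 at 0.08 and BNIP3 at 0.13. GAPDH, a glycolytic enzyme, was 1.44-fold higher (1.42 to 1.46). The hypoxia letters ACGTG were in 27.4% of all promoters, 35.7% of the 28 promoters of this list, 31.8% of the 2-fold higher and 18.5% of the 2-fold lower.

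GDF15 differed more from the control than any other measured gene of a stress programme that is known to induce it. In the integrated stress response, in which the kinases of eIF2 raise the factors ATF4 and DDIT3, 5 of 28 genes were past 1.5-fold higher and 5 lower (17.9% each way, beside 4.55% and 4.56% of all), with a median of 0.14. ATF4 had 121 FPKM in the control, 141 with sh1089-1 and 128 with sh1089-2, whereas DDIT3 (CHOP) was 1.79-fold lower (1.52 to 2.12) and CEBPB was 1.95-fold lower (1.81 to 2.1). CHAC1, a glutathione-degrading target of ATF4, was 2.34-fold higher (1.82 to 3.02), and the serine synthesis genes PHGDH and PSPH were 1.85-fold higher and 1.89-fold higher.

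Of 24 chaperone genes of the cytosol 3 were past 1.5-fold lower (12.5%, beside 4.56% of all) and none higher, with a median of 0.01. The lower genes were HSPA6, the small heat shock gene HSPB8 (-0.73) and HSPA1A (-0.60), which has the near-identical copy HSPA1B (-0.48). HSPA8, the constitutive HSP70, stood at 0.43 and HSP90AB1 at 0.03. In the endoplasmic reticulum 3 of 24 were lower, also 12.5%: DNAJB9 (-0.92), SEL1L (-0.66), a scaffold of protein degradation, and the stress sensor ERN1 (-0.59). The chaperone HSPA5 (BiP) had 599 FPKM in the control, 401 with sh1089-1 and 403 with sh1089-2 and missed the line at -0.58.

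Genes of inflammation were lower in part, unevenly by role. Of 25 measured genes of the cytokine and prostaglandin list, 17 were below the control, beside 53.5% of all measured genes. Past 1.5-fold, 6 were lower (24%, beside 4.56% of all) and 1, IL11, was higher, and the median was -0.45. Without the filter on low values the median was -0.24. By role, 6 of 7 cytokines, 3 of 5 chemokines and 2 of 4 prostaglandin genes were below the control, and the rest are NF-kB control genes. The listed chemokines summed to 183, 222 and 296 FPKM in shNC, sh1089-1 and sh1089-2. IL6 had 48.8 FPKM in the control, 15.2 with sh1089-1 and 20.5 with sh1089-2 and was 3.21-fold lower (2.82 to 3.66). IL1B had 3.71 FPKM in shNC against 0.61 in sh1089-1 and 0.695 in sh1089-2, and IL1A had 74, 11 and 8 reads in shNC, sh1089-1 and sh1089-2. The neutrophil chemokines CXCL8 and CXCL2 were 1.85-fold lower (1.55 to 2.21) and 2.6-fold lower (1.8 to 3.85). For these genes the control was the highest library. CCL5, a T cell chemokine, had 132 FPKM in the control, 189 with sh1089-1 and 269 with sh1089-2 and was 1.43-fold higher (1.35 to 1.51). The NF-kB subunit gene RELA stood at -0.05, and NFKB2, RELB and NFKBIE lay at -0.44, -0.45 and -0.53, short of the 1.5-fold line. Of the 9 NF-kB control genes in the list 6 were below the control, beside 53.5% of all measured genes. The other 3 were above, the furthest at 0.56, and the median of the 9 was -0.44.

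Lysosomal genes were lower over most of the list, with 35 of 42 below shNC, beside 53.5% of all measured genes. Past 1.5-fold, 12 were lower (28.6%, beside 4.56% of all) and none higher, and the median was -0.38. The cathepsins, proteases of the lysosome, included CTSB with 386 FPKM in the control, 189 with sh1089-1 and 230.1 with sh1089-2 and CTSD with 40.4 FPKM in shNC against 21.5 in sh1089-1 and 17.7 in sh1089-2. CTSL was 2.05-fold lower (1.89 to 2.21), TPP1, a tripeptidyl peptidase, was 2.37-fold lower (2.07 to 2.73), and PSAP, the precursor of the saposins that present lipids to hydrolases, was 1.78-fold lower (1.73 to 1.84). In the membrane NPC1, the cholesterol exporter, was 1.82-fold lower (1.73 to 1.91) and LAMP2 1.59-fold lower (1.48 to 1.72), whereas LAMP1 and CD63 stood at -0.26 and -0.13. Of the proton pump, ATP6V1A, ATP6V1G1 and ATP6V1C1 were 1.89-fold lower, 1.64-fold lower and 1.65-fold lower, and ATP6V1F stood at 0.18. CTSZ, another cathepsin, was the furthest above the control, at 0.28.

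The lysosomal promoters were searched for the CLEAR letters TCACGTG, which TFEB and its relatives bind and which contain the hypoxia letters ACGTG. They were in 8 of 27 promoters of the list (29.6%), beside 6.09% of all promoters, 13.6% of the 2-fold higher and 7.41% of the 2-fold lower. The share in the list describes the list and not the difference between libraries. The hypoxia letters, counted also where they lie inside the CLEAR letters, were in 51.9% of the lysosomal promoters, beside 27.4% of all. The CTSD stretch shows the match on the opposite strand, so the capitals spell its reverse complement, 47 bases before the start. The factors stood near the control: TFEB at -0.27, TFE3 at 0.19 and MITF at 0.03.
CTSD, chr11:1763908-1764057, minus strand: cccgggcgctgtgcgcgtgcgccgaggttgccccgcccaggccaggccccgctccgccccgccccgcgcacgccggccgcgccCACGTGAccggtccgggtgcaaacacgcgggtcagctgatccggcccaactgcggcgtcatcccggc

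Autophagy, which delivers cargo to the lysosome, had 5 of 23 genes past 1.5-fold lower (21.7%, beside 4.56% of all) and none higher. All 5 cargo receptors were below the control, led by SQSTM1 (p62) with 337 FPKM in the control, 181 with sh1089-1 and 147 with sh1089-2, 1.86-fold lower (1.82 to 1.9). GABARAPL1, a ubiquitin-like protein of the autophagosome, was 1.91-fold lower (1.73 to 2.11) and WIPI1 1.9-fold lower (1.62 to 2.24), while the conjugation genes ATG3, ATG5 and ATG4B stood at 0.06, 0.10 and 0.15.

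Iron storage and NRF2 target genes were lower, with 23 of 27 below shNC, beside 53.5% of all measured genes. Past 1.5-fold, 6 were lower (22.2%, beside 4.56% of all) and none higher, and the median was -0.38 (-0.43 in sh1089-2). Among those with a mean of at least 5 FPKM the median was -0.25. NRF2, encoded by NFE2L2, is the factor of the response to oxidants, and KEAP1 holds it down. FTL, the ferritin light chain, had 18639.6 FPKM in the control, 9245 with sh1089-1 and 6906 with sh1089-2 and took 1.62% of all reads in shNC, 0.805% in sh1089-1 and 0.601% in sh1089-2. FTH1, the heavy chain, had 1948 FPKM in shNC against 1117 in sh1089-1 and 789.6 in sh1089-2, and HMOX1, the haem oxygenase, 185 FPKM in shNC against 97.4 in sh1089-1 and 63.6 in sh1089-2. In these genes the control was the highest library and sh1089-2 the lowest. Ferritin genes have many processed copies in the genome, to which reads may be shared. SLC7A11, the cystine transporter, was 1.68-fold lower (1.48 to 1.91) and GSR, glutathione reductase, 1.67-fold lower (1.52 to 1.82). NQO1, the classical target, stood at -0.49 and TXNRD1 at -0.52, short of the line. NFE2L2 stood at -0.17 and KEAP1 at 0.55. AKR1C3, at -1.49, belongs to a family of close copies and is uncertain. The antioxidant response letters TGACNNNGC were in 14.3% of the 21 promoters of the list and 15.4% of all, and in 44.4% of the lysosomal promoters.

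Matrix and adhesion genes were mixed by role, with 4 of 41 past 1.5-fold higher (9.8%, beside 4.55% of all) and 8 lower (19.5%, beside 4.56%). SPP1 (osteopontin), a secreted ligand of integrins, had 64.9 FPKM in the control, 23.5 with sh1089-1 and 21.2 with sh1089-2 and was 2.76-fold lower (2.5 to 3.06). The integrin subunits ITGB3 and ITGA2, which bind vitronectin and collagen, were 4.25-fold lower (2.77 to 6.76) and 2.17-fold lower (1.82 to 2.6), and the laminin chain LAMC1 was 1.94-fold lower (1.88 to 2.01). LOX, which crosslinks collagen, was 1.99-fold lower (1.8 to 2.2). All 4 higher genes were proteases or a protease inhibitor: ADAMTS6, PLAT (tissue plasminogen activator, 13.4, 31.2 and 66.6 FPKM), TIMP3 (0.67) and MMP3. MMP3 had 23, 64 and 9 reads in shNC, sh1089-1 and sh1089-2, so the direction differed between the hairpin libraries. FN1 (fibronectin) stood at -0.12, with 20.2, 18.5 and 32.1 FPKM, so sh1089-2 lay above the control. The median of the list was -0.18 in sh1089-1 and 0.04 in sh1089-2.

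Growth and housekeeping machinery stayed mostly within 1.5-fold. Of 53 cytosolic ribosomal protein genes only RPS13 passed it, at -0.59, and the median was -0.11. None of 26 nuclear genes of the respiratory chain passed it (median 0.10). Of 18 ribosome biogenesis genes 1 did (BOP1, 0.60), or 5.6%, and of 30 proteasome genes 1 (PSMC3, 0.60), or 3.3%. Both shares lie near the 4.55% of all measured genes. MYC, the growth factor-induced regulator of these genes, had 78.7 FPKM in the control, 59.1 with sh1089-1 and 67.8 with sh1089-2. Splicing factors were above the control in 21 of 24 genes (beside 46.5% of all), with 4 past 1.5-fold higher (16.7%, beside 4.55% of all). Of these 4, SRSF3 (0.72), SRSF2 (0.66) and SRSF1 (0.61) are of the SR family, and HNRNPM (0.64) is an hnRNP. Of 8 epithelial markers 5 were measured, 3 above and 2 below the control. The keratins KRT18 and KRT19 were past 1.5-fold higher, KRT18 with 739 FPKM in shNC against 1244 in sh1089-1 and 1203 in sh1089-2 and KRT19 with 289.8, 441 and 441 FPKM in the same order. The tight junction gene CLDN1 was past 1.5-fold lower with 19.2, 11.3 and 8.54 FPKM, and EPCAM and CDH1, the defining epithelial markers, lay below 0.1 FPKM in shNC. Of 7 fibroblast and mesenchymal markers 5 were measured, 2 above and 3 below the control, with a median of -0.08. Only THY1 was past 1.5-fold higher and none lower. In that list VIM, vimentin, had 922, 1171 and 1445 FPKM. The part of these epithelial and mesenchymal markers in the results above was not tested.

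**Figure D4:**
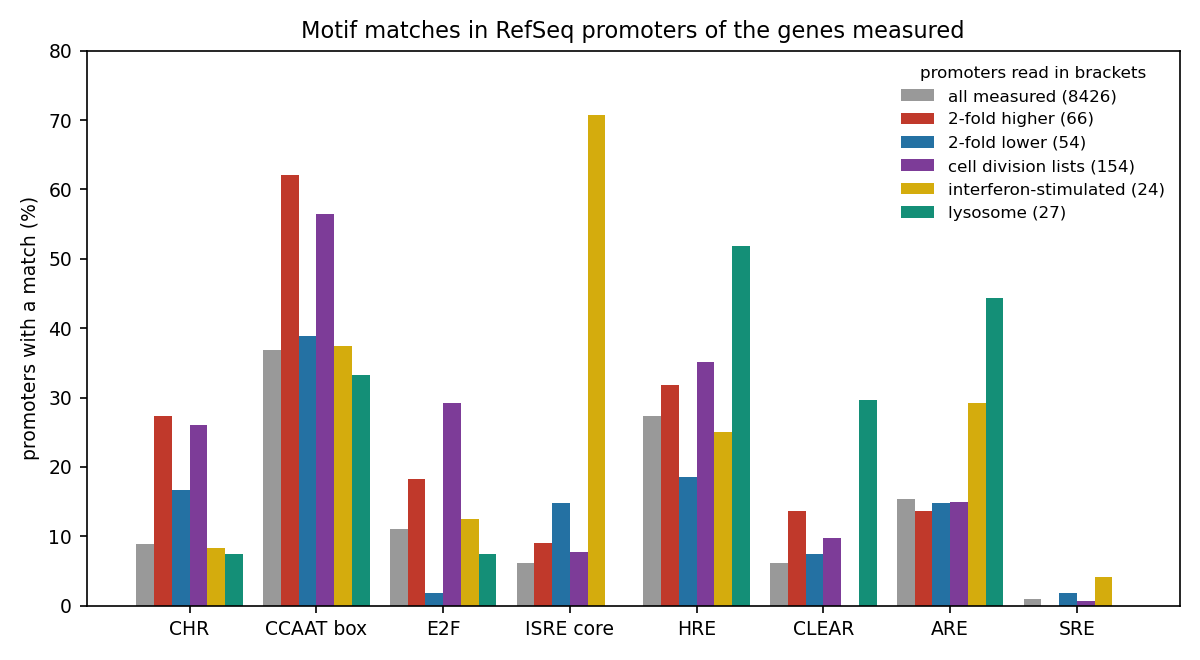
Percent of RefSeq promoters (250 bases before to 50 after the start) that hold each of the 8 motifs on either strand, for all measured genes, the genes 2-fold higher or lower in sh1089-1 and the cell division, interferon-stimulated and lysosome lists. The CHR, CCAAT and E2F letters are more frequent in the cell division promoters (26.0%, 56.5% and 29.2%) than in all promoters (8.85%, 36.8% and 11%), the ISRE core in the interferon list (70.8%), and CLEAR in the lysosome list (29.6%). Shares in the lists describe the lists and not the difference between libraries.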

How the data were processed

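RNA was measured in 3 SK-Hep-1 lines, 1 library each. Trizol RNA was enriched for mRNA and made into libraries that keep the strand, per the labels' protocols. FastQC, StringTie and GRCh38 are named in the submitters' processing notes. For the aligner, annotation release and use of strand in counting: not given in the sources used here. The deposited values are FPKM, as the authors computed them from reads, gene length and library size.

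Gene types and coordinates came from GENCODE release 29 on GRCh38. Whole reads were recovered from the FPKM steps for 19201 of 19219 genes with a value above 0 (99.91%), each value within 0.002 of a whole read. The length used was the one nearest the annotated length that gave whole reads, and it equalled the GENCODE 29 length in 62.7% of genes. The FPKM steps gave the library totals, and the recovered reads gave the filter of 100 reads and 95% Clopper-Pearson intervals of ratios. For a gene with 0 reads the upper limit, set at 3 reads, was 0.28 RPM in shNC, 0.315 in sh1089-1 and 0.359 in sh1089-2. Without molecular identifiers, these intervals and limits reflect counting error alone.

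Differences were taken in log2(FPKM + 1) over protein-coding genes whose mean FPKM reached 1. Genes were named as the 15 highest and 15 lowest differences among those with at least 100 reads, the markers MYBL2, PLK1, EPAS1 and GDF15, and up to 4 list members each way past 1.5-fold with the best known members. Further members, and genes outside the lists, were named after their values were seen. The genes and the 32 lists were chosen with earlier results of these data known. Both hairpin libraries were set against the same shNC library, so their differences share its error. Python 3.11.15 with pandas 2.3.3, numpy 2.4.6 and scipy 1.17.1 was used, and the reading of whole reads and of differences was tested on simulated data. Some genes of the lists are not reported here.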

Additional observations from a re-analysis of the deposited data

How the results depend on the processing

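No paired analysis was possible because each group has 1 library, and for the same reason no replicate could be left out. Counts of genes past a fold depended on how low genes were treated. With a pseudocount of 0.1 in place of 1, 169 genes were 2-fold higher and 172 lower, and 861 were 1.5-fold lower, against 86, 71 and 470. With FPKM rescaled to TPM, which raises each value above the added 1, the 2-fold counts were 152 and 123. With a mean of at least 5 FPKM, which leaves 6117 genes, 38 were 2-fold lower and 245 were 1.5-fold lower, and 64.8% of the 2-fold genes were on the higher side, against 54.8%. Without a filter, with each difference centred on the median, or with at least 100 reads, the 4 counts stayed within 1.5 times. In all, 17 of 24 recomputed counts did. Of 172 recomputed differences of single genes 9 moved, and of 168 list medians 16. All 9 came with the pseudocount of 0.1 or in TPM. The filters only choose which genes are kept, so under them a single gene's difference could not move. Centring shifts every gene alike by a small amount. GAGE12J, with no reads in the control, was counted as unmoved whatever its value, also at 8.32 with the pseudocount of 0.1. Medians close to 0 changed sign: HIF factors (0.001) and heat shock chaperones (-0.001) without a filter, and the proteasome at 5 FPKM (0.002), in TPM (0.014) and centred (0.017). The libraries' depth leaves genes under 100 reads with wide intervals, and the absence of replicates limits every comparison.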

Other observations

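Of the 86 genes 2-fold higher, 38 were in none of the lists, and several are known from chromatin assembly and chromosome structure. These genes were picked after their values were seen. CHAF1B, a subunit of the histone chaperone of the replication fork, had 2.22 FPKM in the control, 6.44 with sh1089-1 and 6.68 with sh1089-2, and ASF1B, a chaperone that hands histones to it, had 10.03 FPKM in shNC against 25.5 in sh1089-1 and 23.2 in sh1089-2. UHRF1, which recruits the maintenance DNA methyltransferase, was 2.27-fold higher (2.1 to 2.45), SUV39H1, a methyltransferase of histone H3, was 2.39-fold higher (2.01 to 2.85), and NCAPG, a condensin subunit, was 2.79-fold higher (2.31 to 3.38). H2AX, the histone variant phosphorylated at DNA breaks, had 51.1 FPKM in shNC against 129.9 in sh1089-1 and 112 in sh1089-2. The antigen presentation genes HLA-DRA and CD74, the invariant chain, had 5.79, 14.8 and 27.2 FPKM and 6.82, 14.7 and 21.3 FPKM in the order shNC, sh1089-1, sh1089-2, with sh1089-2 the highest library in both.

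Of the 71 genes 2-fold lower, 53 were in none of the lists, from which the following were also picked after their values were seen. ID3, an inhibitor of helix-loop-helix factors induced by BMP signals, had 85 FPKM in the control, 37 with sh1089-1 and 20.2 with sh1089-2. SGK1, a kinase induced by glucocorticoids and osmotic stress, was 2.26-fold lower (2.12 to 2.42), and CD55, a complement inhibitor, 2.61-fold lower (2.31 to 2.95). HPS5, of a complex that builds lysosome-related organelles, had 20.2 FPKM in shNC against 5.94 in sh1089-1 and 6.01 in sh1089-2. NCOA3, a coactivator of nuclear receptors, had 12.5, 4.4 and 4.87 FPKM in the same order.

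Neighbouring genes sometimes lay to the same side. Over 9633 stretches of 30 neighbouring measured genes, the median difference ran from -0.23 to 0.20 in the middle 95%. The highest stretch, chosen after its value was seen, was on chromosome 17 from 15944917 to 18736118, with a median of 0.51 and 25 of 30 genes above the control. It holds SREBF1 (1.03) and TOP3A (0.85). The lowest stretch was on chromosome 6 from 24667035 to 28159472, with a median of -0.37 and 25 of 30 below. It holds a histone gene cluster, in which H1-2 had 248 FPKM in the control, 111 with sh1089-1 and 97.1 with sh1089-2 and H2BC5 stood at -1.26. Replication-dependent histone transcripts mostly lack a poly(A) tail, so their values in an mRNA-enriched library are uncertain. A further stretch on chromosome 11, from 10797050 to 18634791, had a median of -0.35 with 27 of 30 genes below, among them HPS5 (-1.61) and LDHA (-0.81).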
